A study of Mus musculus with 12 samples.

Results

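Among 32182 genes listed for white adipose tissue of mice on a high-fat diet, 63 had a deposited level at least 4-fold higher in adipocytes of the inguinal depot than in those of the epididymal depot, while the stromal vascular cells of the 2 depots held similar levels. Inguinal adipose tissue (IAT) is a subcutaneous fat depot of the groin, and epididymal adipose tissue (EAT) is a visceral depot beside the testis. Adipocytes store triglyceride in a lipid droplet, and stromal vascular cells (SVCs) are the remainder left after a digest with collagenase I, among them adipocyte precursors, immune cells and endothelial cells. All libraries came from male C57BL/6J mice, an inbred strain, that were fed the high-fat diet for 10 weeks from 8 weeks of age. No lean or untreated group was analysed here, so every value below belongs to the high-fat diet. Adipocytes and SVCs of each depot made 4 groups, each with 3 libraries of 20707325 to 26349357 expected counts. No label ties a library to an animal or says whether animals were pooled, so p-values reflect the spread among these libraries alone, and that spread may be technical.

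White adipocytes take up fatty acids and glucose, build triglyceride and release fatty acids between meals, and they secrete hormones such as leptin and adiponectin. Adipocytes of subcutaneous and visceral depots arise from different precursors and are known to differ in lipid synthesis, in insulin response and in how readily they take on thermogenic features. The stroma of a depot shares its location and blood supply with the adipocytes, and genes that mark a depot's origin can be found in both fractions.

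The 63 genes were chosen from the deposited level values (TPM, the authors' level scaled for transcript length and library size). The rule asked for a ratio of EAT to IAT adipocytes of at most 0.25, with 0.1 added to each group mean, and for a ratio of EAT to IAT SVCs from 0.67 to 1.5. It also asked for a mean of at least 1 TPM in IAT adipocytes and for every IAT adipocyte library to lie above every EAT adipocyte library. Both depot differences are thus the choice itself and are given without a test. Over all 15813 genes that passed a filter on low counts, 23.8% had every IAT adipocyte library above every EAT adipocyte library, and 1.1% had an adipocyte ratio of at most 0.25 and 0.993% met all the adipocyte conditions; nothing about the 63 is read from these shares. Over all 32182 genes listed, with no count filter, the adipocyte conditions alone held for 166 genes. Of these, 77 had an SVC ratio below 0.67 and 26 had one above 1.5.

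The tables give genes by UCSC transcript identifiers, which no table used here pairs with symbols. The lists of pathway genes and cell type markers were therefore not analysed here, and the labelled cell types were not checked against markers. Members are given below by identifier for 4 genes and otherwise by their rank among the 63 in mean TPM of IAT adipocytes; those given by rank were singled out after their values were seen. EAT adipocyte replicate 2 stood apart from its group over all genes, at a median log2 difference of -0.46 from the other 2 libraries (TPM with 0.1 added), and at -0.22 over the 63 genes. Without it, 65 genes met the rule, of which 53 were among the 63.

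**Figure D1:**
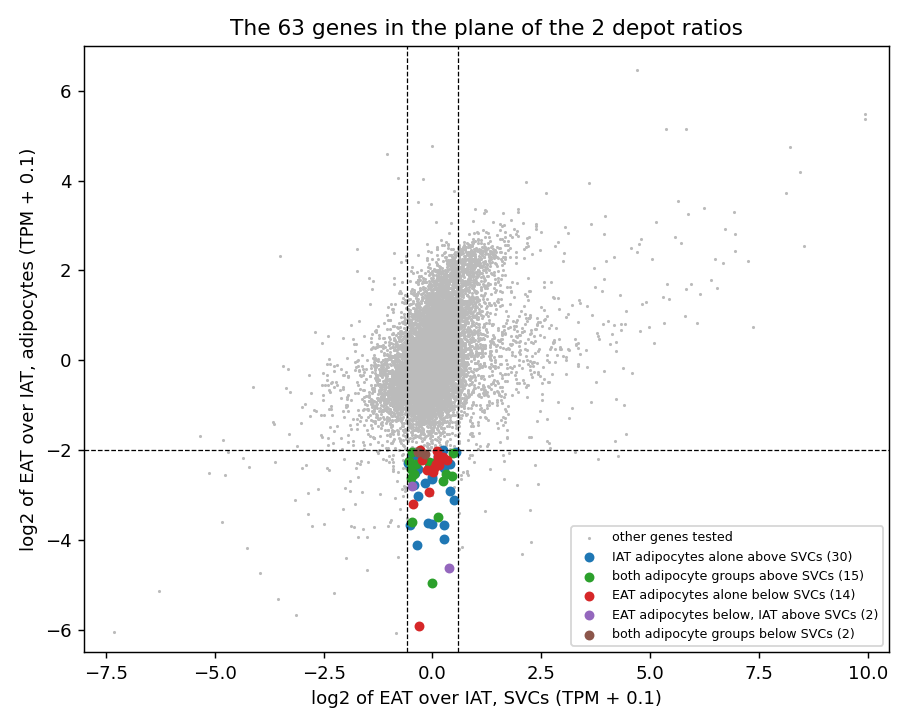
Each point is a gene, placed by the log2 ratio of EAT to IAT in SVCs (x axis) and in adipocytes (y axis), both from group mean TPM with 0.1 added. Dashed lines mark the bounds of the rule, grey points are other genes that passed the count filter, and colours give the place of the 63 genes' adipocyte groups beside the SVC level; the lowest red point is the gene ranked 9, whose counts were not higher in IAT adipocytes.

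In adipocytes the 63 genes had a median level of 0.847 TPM in EAT and 6.94 TPM in IAT (group means of 3 libraries), and the IAT means ran from 1.07 to 1562 TPM. The median fold of IAT over EAT adipocytes was 5.33, with quartiles of 4.75 and 7.23, against a median of 1.03 over all genes tested. Of the 63, 38 were at least 5-fold, 11 at least 10-fold and 3 at least 20-fold apart by TPM. On CPM (counts scaled to the library, without length) the same counts were 34, 6 and 2, and the gene with the widest gap by TPM, ranked 9, had a CPM fold of 0.543. In SVCs their median level was 0.863 TPM in EAT and 0.953 TPM in IAT, and the ratio of EAT to IAT was below 1 for 32 genes and at least 1 for 31. The SVC libraries of the 2 depots did not overlap for 11 of the 63, where 43.8% of all genes tested did not overlap. That low share is also a product of the rule, which bounds the SVC ratio.

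Added up, the 63 genes made 2291 to 2940 TPM in the IAT adipocyte libraries and 346.6 to 414 TPM in the EAT adipocyte libraries. A single gene, uc007diq.1, held a large part of both sums. Without it the sums were 915 to 1384 TPM in IAT adipocytes, 182 to 241 TPM in EAT adipocytes, 473.5 to 492 TPM in EAT SVCs and 451 to 581 TPM in IAT SVCs. The IAT SVC range includes the gene ranked 9, which had 171 TPM in replicate 3 and 1.5 TPM in replicate 1. Its expected counts there were alike, at 65.7 and 67.4.

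**Figure D2:**
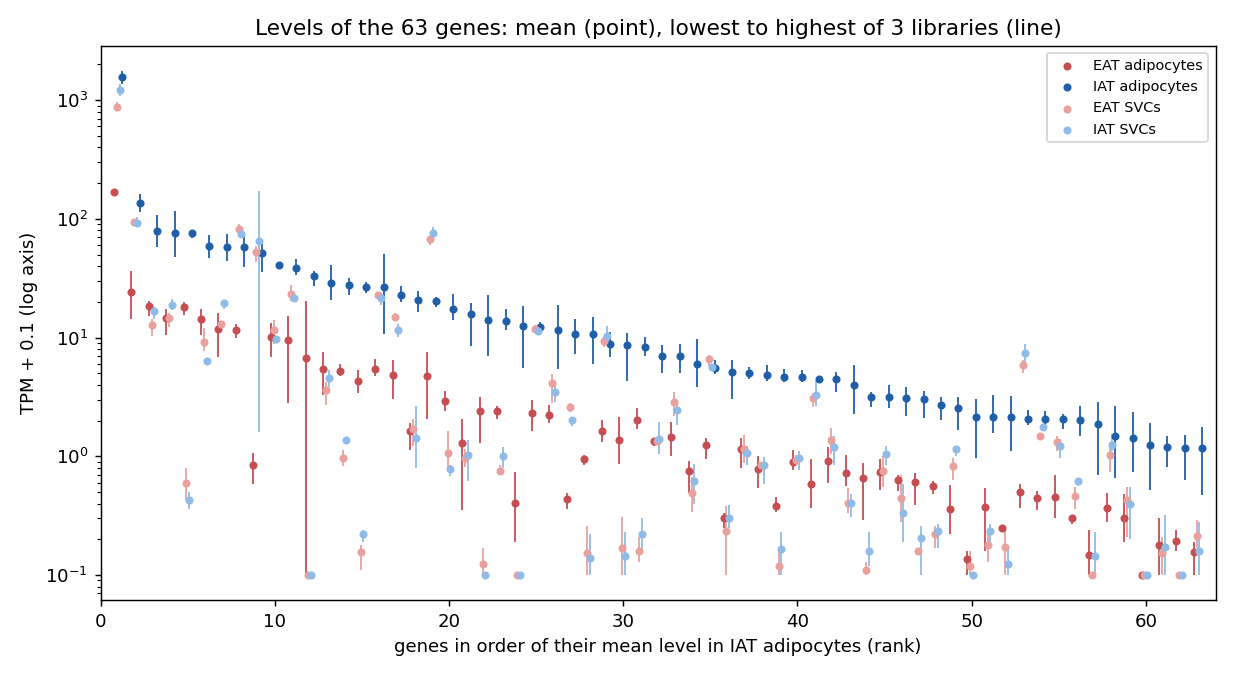
Levels of the 63 genes in TPM plus 0.1 on a log axis, in order of their mean in IAT adipocytes from rank 1 to 63; points are group means and lines run from the lowest to the highest of 3 libraries. The dark blue points of IAT adipocytes fall from 1562 TPM to 1.07 TPM, while the pale SVC points lie above, level with or below the dark red EAT adipocyte points.

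Although the SVC levels were alike in the 2 depots, the place of the adipocytes beside them differed from gene to gene. For 30 genes IAT adipocytes alone stood more than 2-fold above the mean of the SVC groups, with EAT adipocytes within 2-fold of it. For 15 genes both adipocyte groups stood more than 2-fold above SVCs. For 14 genes EAT adipocytes alone stood more than 2-fold below SVCs, with IAT adipocytes within 2-fold. The remaining 4 genes were 2 with EAT adipocytes below and IAT adipocytes above SVCs, and 2 with both adipocyte groups below. These folds are of TPM with 0.1 added, which understates the change of genes with low levels, and the bounds were set after the values were seen. Without EAT adipocyte replicate 2, these 5 patterns held, in the order given, 28, 17, 13, 2 and 2 genes. In a bulk sample, fewer cells of a type and less RNA per cell cannot be told apart.

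The 30 genes with IAT adipocytes alone above SVCs had medians of 4.64 TPM in IAT adipocytes, 0.662 in EAT adipocytes, 0.698 in EAT SVCs and 0.807 in IAT SVCs. IAT adipocytes were a median of 6.68-fold above the SVC mean, from 2.64-fold to 19.5-fold, and EAT adipocytes a median of 1.04-fold. In all 30 every IAT adipocyte library lay above every SVC library, which held for 21.5% of all genes tested. The 2-fold bound that defines the pattern favours this, so nothing is read from that share. For 18 of the 30 both SVC groups averaged below 1 TPM, so these transcripts were scarce in 3 of the 4 groups.

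The gene with the highest level in this pattern was uc008hmj.3 (1 transcript, 2157 bases). It had 72.2, 108 and 57.7 TPM in IAT adipocyte replicates 1, 2 and 3 and 19.2, 20.3 and 15.2 TPM in EAT adipocytes. In SVCs it had 14.4, 13.3 and 10.3 TPM in EAT and 18.1, 17.7 and 14.3 TPM in IAT. The lowest IAT adipocyte library thus lay above every library of the other groups, and the IAT SVC libraries overlapped both EAT groups. The means were 79.2 ± 25.6 TPM in IAT adipocytes and 18.2 ± 2.70 TPM in EAT adipocytes (SD, n = 3). The next gene, uc007pjd.3 (3 transcripts), had 63.7, 117 and 47.6 TPM in IAT adipocytes against 17.2, 10.4 and 16.0 TPM in EAT adipocytes. Its SVC levels were 12.1, 16.0 and 15.5 TPM in EAT and 17.0, 21.1 and 18.5 TPM in IAT. The means were 76.2 ± 36.5 TPM in IAT adipocytes and 14.5 ± 3.60 TPM in EAT adipocytes (SD, n = 3). In both genes IAT adipocyte replicate 2 was the highest library and replicate 3 the lowest of its group.

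The 15 genes with both adipocyte groups above SVCs were scarce in the stroma. Their medians were 12.5 TPM in IAT adipocytes, 1.92 in EAT adipocytes, 0.060 in EAT SVCs and 0.107 in IAT SVCs, and in 14 of the 15 both SVC groups averaged below 1 TPM. The gene of this kind with the highest level, ranked 5 by its mean in IAT adipocytes, had 69.4, 76.4 and 80.8 TPM in IAT adipocytes and 15.5, 18.8 and 19.9 TPM in EAT adipocytes. In the 6 SVC libraries it had 0.26 to 0.69 TPM. Its expected counts were not whole numbers in any of the 12 libraries, so it shares reads with other genes and its level is uncertain, and on CPM it was 3.87-fold higher in IAT than in EAT adipocytes, which misses the rule. Every EAT adipocyte library lay above every SVC library in 14 of the 15 genes, where 16.3% of all genes tested did so. That high share is also favoured by the definition of the pattern. IAT adipocytes were a median of 43.9-fold and EAT adipocytes a median of 4.89-fold above the SVC mean. With SVCs so low, a ratio of 0.67 to 1.5 between their depots compares values close to the 0.1 that was added.

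The 14 genes with EAT adipocytes alone below SVCs had medians of 17.3 TPM in IAT adipocytes, 13.2 in EAT SVCs and 11.4 in IAT SVCs, against 1.86 TPM in EAT adipocytes. In all 14 every EAT adipocyte library lay below every SVC library, which held for 42.7% of all genes tested. The genes were sorted into this pattern by low EAT adipocyte means, so the share is largely a product of that choice. In 5 of the 14 every IAT adipocyte library lay above every SVC library, where 21.5% of all genes tested did so. The rule and the pattern both bear on the IAT adipocyte level, so nothing is read from that share either. The gene ranked 9 is 1 of the 14 by TPM, but on counts its log2 difference of adipocytes minus SVCs was -0.38 in EAT and -1.48 in IAT, the reverse of the pattern.

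The most abundant gene of the set, uc007diq.1 (1 transcript, 1636 bases), was of this kind. It had 1754, 1556 and 1376 TPM in IAT adipocytes and 179, 157 and 173 TPM in EAT adipocytes, which is 9.20-fold apart (means 1562 ± 189 and 170 ± 11.1 TPM, SD, n = 3). In SVCs it had 962, 839 and 841 TPM in EAT and 1354, 1180 and 1085 TPM in IAT. The lowest IAT SVC library lay above the highest EAT SVC library, so its SVCs leaned the same way as its adipocytes, at a ratio of 0.730 that the rule admits. The gene uc008uaq.1 (3 transcripts) had 59.8, 73.4 and 39.0 TPM in IAT adipocytes and 11.4, 9.89 and 12.9 TPM in EAT adipocytes (means 57.4 ± 17.4 and 11.4 ± 1.49 TPM, SD, n = 3). Its SVC levels were 90.1, 74.9 and 82.8 TPM in EAT and 80.1, 75.3 and 69.1 TPM in IAT. For this gene the SVC libraries of the depots overlapped, and IAT adipocyte replicate 2 lay within their range while replicates 1 and 3 lay below every SVC library. The gene ranked 2 had 133, 162 and 114 TPM in IAT adipocytes, 14.1, 36.6 and 21.8 TPM in EAT adipocytes and 86.6 to 103 TPM in the SVC libraries. Its IAT adipocyte libraries lay above every SVC library, and EAT adipocyte replicate 2 was the highest of its group.

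**Figure D3:**
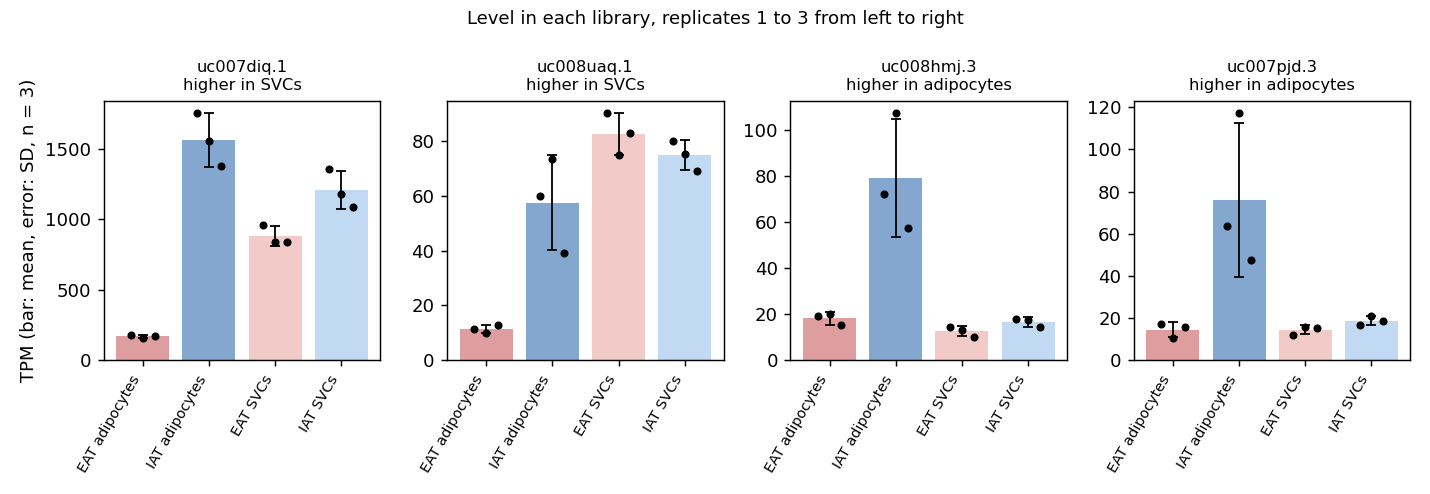
TPM of the 4 genes given by identifier in each library, with a linear axis from 0 in each panel; bars are means of 3 libraries, error bars the SD and points the replicates. In uc007diq.1 and uc008uaq.1 the EAT adipocyte bar is the low one (170 and 11.4 TPM), and in uc008hmj.3 and uc007pjd.3 the IAT adipocyte bar is the high one (79.2 and 76.2 TPM).

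Of the 2 genes with EAT adipocytes below and IAT adipocytes above SVCs, the more abundant one ranked 27. It had 10.6, 14.2 and 7.17 TPM in IAT adipocytes, 0.39, 0.26 and 0.37 TPM in EAT adipocytes, 2.25 to 2.69 TPM in EAT SVCs and 1.70 to 2.01 TPM in IAT SVCs. The groups were ordered without overlap, with IAT adipocytes 24.5-fold above EAT adipocytes, and on CPM the fold was 34.4. Of the 2 genes with both adipocyte groups below SVCs, the more abundant one ranked 19. It had 18.1 to 21.9 TPM in IAT adipocytes and 1.97 to 7.39 TPM in EAT adipocytes, against 59.9 to 84.5 TPM in the SVC libraries.

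The comparison of adipocytes with SVCs, averaged over both depots, is not the contrast of the rule, although it uses the same libraries. A gene that is high in IAT adipocytes and scarce elsewhere has to come out higher in adipocytes, so the counts describe the set and support nothing about it. Of the 63 genes, 58 passed the filter on low counts and were tested with edgeR's quasi-likelihood test over all 15813 genes (adjusted p below 0.05, Benjamini-Hochberg). Of these, 41 were higher in adipocytes, where 32.8% of all genes tested were, and 10 were higher in SVCs, where 42.3% of all genes were. The other 7 passed in neither direction. Without EAT adipocyte replicate 2 the counts were 42 and 11. The 58 genes had a median log2 difference of 1.65 (adipocytes minus SVCs), against -0.16 over all genes tested.

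The 4 genes given by identifier were picked by their call in this test, and the rule used their adipocyte means. Their values below thus describe them and support nothing further. Among them, uc008hmj.3 was higher in adipocytes by 1.82 on the log2 scale (adjusted p = 1.66e-06, SE 0.18, edgeR). The gene uc007pjd.3 was higher by 1.40 (adjusted p = 1.31e-05, SE 0.18, edgeR). Lower in adipocytes were uc008uaq.1, at -1.22 (adjusted p = 3.38e-06, SE 0.13, edgeR), and uc007diq.1, at -0.58 (adjusted p = 0.000341, SE 0.11, edgeR). For uc007diq.1 the call is lower in adipocytes although its IAT adipocyte libraries were all above its SVC libraries. Its mean over depots joins a log2 difference of -1.90 in EAT with one of 0.75 in IAT. The other genes given by identifier also differed between the depots. In EAT and IAT, uc008hmj.3 stood at 1.03 and 2.60, and uc007pjd.3 at 0.43 and 2.37. The gene uc008uaq.1 stood at -2.41 in EAT and -0.02 in IAT.

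Through its bounds on TPM the rule pushes the fraction difference to be more positive in IAT than in EAT, so the values within each depot are a description. In IAT, 54 of the 58 genes had a positive log2 difference of adipocytes minus SVCs and 4 a negative one, with a median of 2.81 against -0.24 over all genes tested. In EAT, 36 were positive and 22 negative, with a median of 0.45 against -0.04 over all genes tested. Thus 36 genes were on the adipocyte side in both depots and 4 on the SVC side in both. Another 18 were on the adipocyte side in IAT and the SVC side in EAT. These sides are by scaled counts, and where a difference is small the side depends on the scale. The genes ranked 7 and 10 stood at 0.26 and 0.22 in EAT. By TPM with 0.1 added, their EAT adipocytes were at 0.907 and 0.873 of the EAT SVC level.

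**Figure D4:**
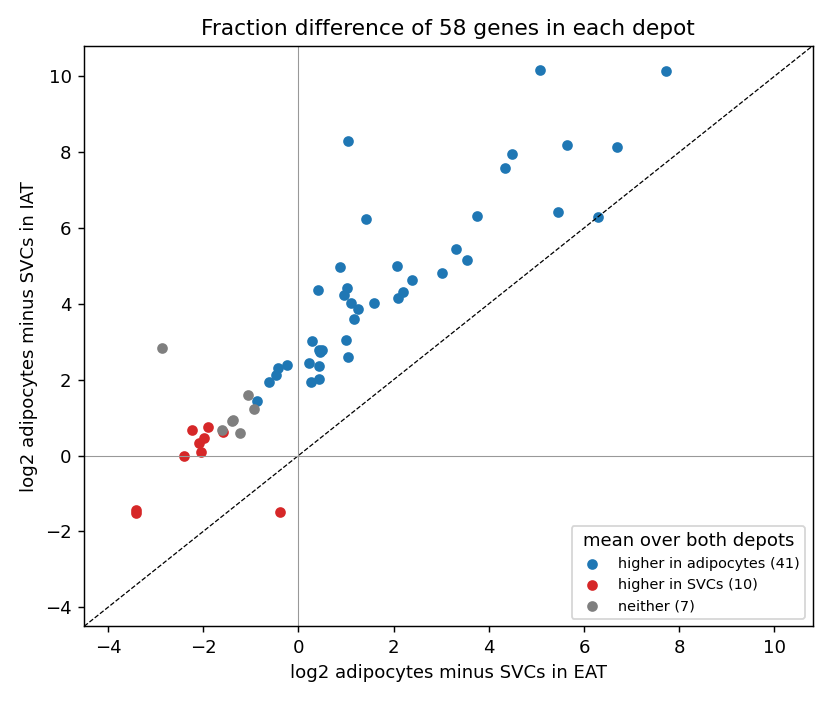
Log2 difference of adipocytes minus SVCs in EAT (x axis) and in IAT (y axis) for the 58 genes that passed the count filter, from the fit to all 12 libraries; colours give the call for the mean over both depots (41 higher in adipocytes, 10 higher in SVCs, 7 neither). Most points lie above the dashed line of equality, which follows from the rule, and 18 lie in the upper left quadrant; the red point below the line is the gene ranked 9.

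RNA of SVCs in the adipocyte fraction was looked at through 1878 genes at least 4-fold higher in SVCs (mean over both depots, adjusted p below 0.05, edgeR), a list drawn on these same libraries and without the 63. They made 0.993% to 1.19% of the summed TPM in IAT adipocyte libraries and 0.825% to 1.12% in EAT adipocyte libraries, ranges that overlap, against 8.66% to 16.0% in SVC libraries. Their median fold of IAT over EAT adipocytes was 1.03. A matching list of 929 genes higher in adipocytes had a median fold of 1.70, and made 25.01% to 26.7% of the summed TPM in IAT adipocyte libraries against 12.3% to 16.3% in EAT adipocyte libraries. The part of either in the differences of the 63 genes was not tested.

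The replicates of IAT adipocytes and of both SVC groups were spread more widely for these genes than for the median gene, a description without a test. The coefficient of variation (SD over mean, TPM) had a median of 0.274 for the 63 genes and 0.126 over all genes tested in IAT adipocytes. The medians were 0.324 and 0.294 in EAT adipocytes, 0.234 and 0.103 in EAT SVCs, and 0.215 and 0.098 in IAT SVCs. The genes were not matched for level, and whether the wider spread goes with level or with the depot difference was not tested. In IAT adipocytes, replicate 2 was the highest library for 45 of the 63 (71.4%, against 49.9% of all genes tested) and replicate 3 the lowest for 47 (74.6%, against 36.4%). Relative to the mean of the other 2 libraries, replicate 2 stood at a median log2 difference of 0.42 and replicate 3 at -0.53 over the 63 genes, and at 0.08 and -0.04 over all genes tested. Most of the 63 thus had the same highest and the same lowest library, and they are not independent of each other.

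Not every one of the 63 rested on more reads in IAT adipocytes. The gene ranked 9 had the widest TPM gap of all, with 35.3, 52.3 and 65.8 TPM in IAT adipocytes and 0.48, 0.81 and 0.96 TPM in EAT adipocytes, which is 60.3-fold. Its expected counts were 16.2, 20.3 and 25.5 in IAT adipocytes and 21.1, 49.0 and 47.2 in EAT adipocytes, so that the CPM fold was 0.543. RSEM had assigned its reads to transcripts of different length: the gene's effective length was 29.4 to 34.0 bases in IAT adipocytes and 3878 to 3880 bases in EAT adipocytes. Across the 3 IAT SVC libraries its counts were 65.7 to 67.4, while its TPM ran from 1.5 to 171.

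**Figure D5:**
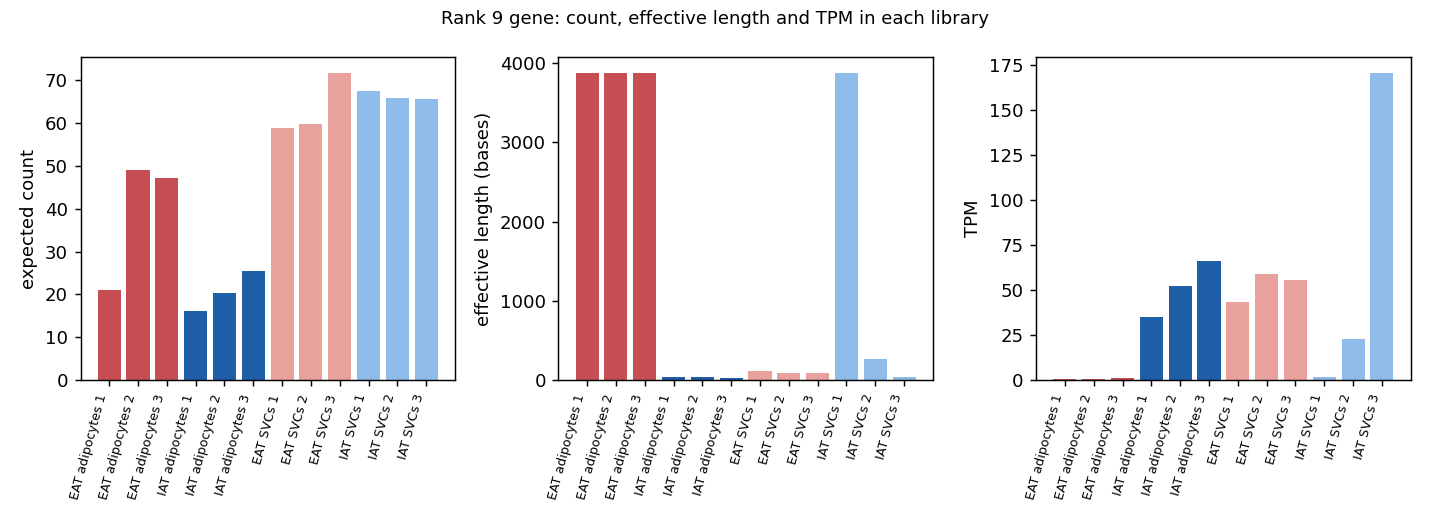
Expected count, effective length in bases and TPM of the gene ranked 9 in each of the 12 libraries, with bars from 0. The counts of the IAT adipocyte libraries are the lowest or near the lowest, their effective lengths are at most 34.0 bases, and their TPM of 35.3 to 65.8 stands far above the EAT adipocytes.

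The gene ranked 12 was 122 bases long with an effective length of 1.51 to 2.11 bases in IAT adipocytes, and its 27.1, 36.0 and 36.0 TPM there came from 2.33 expected counts over 3 libraries. It was 1 of 5 genes that did not pass the filter on low counts, and the other 4 had 39 to 47 counts over the IAT adipocyte libraries. One of these was listed at 0 TPM in every EAT adipocyte library. By contrast, the 41 genes higher in adipocytes had a median of 396 counts over the 3 IAT adipocyte libraries, and the 10 higher in SVCs had 731. On CPM scaled by the trimmed mean of M-values, 47 of the 63 met the same rule, and of the 16 that did not, 9 had an adipocyte ratio above 0.25, 6 a mean below 1 CPM, 4 an SVC ratio outside its bounds and 1 overlapping libraries, some for more than 1 of these. The gene uc008hmj.3 was among them, at 3.94-fold on CPM, as were the genes ranked 5, 6, 7, 9, 10 and 12. Genes with high levels in IAT adipocytes were thus among those that missed the rule on CPM.

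Apart from their levels, the 63 genes differed little in length from others, with a median of 2491 bases against 2645 over all genes tested. Genes with a single transcript made up 57.1% of the 63 (36 genes) and 34.3% of all genes tested. Expected counts that were not whole numbers (by more than 0.001), which arise where reads are shared between genes, were found in at least 1 library for 14 of the 63 (22.2%) and for 26.0% of all genes tested. The split of reads between these 14 and their near copies is uncertain. They included the genes ranked 5 and 9, in all 12 libraries, uc008hmj.3, in 1 library, and the gene ranked 24, in 6 libraries, which had 18.5, 13.6 and 5.45 TPM in IAT adipocytes, 0.09, 0.64 and 0.18 TPM in EAT adipocytes and was listed at 0 in every SVC library.

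At the edges of the rule, genes on either side were close. The members nearest to the adipocyte bound had ratios of 0.249, 0.249 and 0.248, and the nearest genes outside had 0.2502, 0.2511 and 0.2515. One of the latter had 6.85 TPM in EAT adipocytes and 27.7 TPM in IAT adipocytes. At the lower SVC bound the nearest member had a ratio of 0.674 and the nearest gene outside had 0.667, and at the upper bound they had 1.44 and 1.52. The lowest mean in IAT adipocytes was 1.07 TPM within the set, and the next gene below had 0.993 TPM.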

How the data were processed

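RNA-seq tables of 12 libraries were used, in 4 groups of 3 taken from the labels. Each deposited table lists a gene's expected count, TPM, FPKM and lengths, per the file headers. The authors' TPM and FPKM values are scaled for transcript length and library size. Bowtie2 2.2.6, RSEM 1.2.25 and limma are listed, per the submitters' processing notes, with the builds mm10 and GRCm38 and no roles. The sources used here do not state the strand setting of the counts. The set and all lists were chosen with earlier results of these data known.

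The rule was applied to deposited TPM. Deposited expected counts were rounded, filtered with filterByExpr (15813 genes kept), scaled with TMM and fitted with 1 coefficient per group (8 residual degrees of freedom) in edgeR 4.0.16 (R 4.3.3), with two-sided quasi-likelihood tests. Standard errors are the log2 difference over the root of F. The pipeline was tested on simulated counts. Genes given by identifier are the 2 with the highest mean TPM in IAT adipocytes among those higher in adipocytes, and the same among those higher in SVCs; others are given by rank. Alternatives were other bounds, scales, filters, tools (DESeq2 1.42.0, limma-voom in limma 3.58.1), a replicate block and leaving out each library. Totals of 20707325 to 26349357 expected counts and the effective length of a gene set the precision. Levels below about 1 TPM can thus rest on few reads, most of all in short genes. High levels rested on few reads in the genes ranked 9 and 12, whose effective lengths in IAT adipocytes were very short.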

Additional observations from a re-analysis of the deposited data

How the results depend on the processing

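The number of genes that met the rule was 63 and moved with its bounds: 38 with an adipocyte ratio of at most 0.2, 148 with at most 0.33, 35 with an SVC ratio from 0.8 to its inverse, 106 with 0.5 to 2, 36 with a mean of at least 5 TPM and 40 with 1 added before the ratio, of which 28 were among the 63. With TPM divided by DESeq2 size factors 96 genes met it (62 of the 63), on FPKM 52 (45 of the 63) and on CPM 63 (47 of the 63). Leaving out 1 library at a time gave 52 to 90 genes, and 22 of the 63 met the rule in all 12 such settings. With bounds of 1.5-fold and 3-fold in place of 2-fold, chosen after seeing the data, the genes with EAT adipocytes below and IAT adipocytes above SVCs numbered 8 and 1. On CPM, a comparison also added after seeing the data, 6 of the 63 were at least 10-fold higher in IAT than in EAT adipocytes, against 11 on TPM. The counts higher in adipocytes and in SVCs stayed within 1.5 times the reported ones under each of the 18 alternatives, and each of the 4 genes given by identifier had the same direction and call in all 18. Library size alone moved the median log2 difference of all genes from -0.16 to -0.34, and DESeq2 size factors moved it to -0.06. Same-numbered libraries deviated together at r above 0.1 for every number in 2 of 6 pairs of groups, and 15 of 18 correlated best with their own number. With the replicate number as a block, adipocytes were higher for 41 of the 63 and SVCs for 11.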
